A study of Mus musculus with 4 samples.

Results

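The apolipoprotein D gene, Apod, was examined in mouse embryonic fibroblasts (MEFs) that met interferon-beta for the first time or after an earlier exposure. Apod was represented by 1 locus, XLOC_010092, of 17576 loci in the deposited table, on chromosome 16 from 31286932 to 31314860 (genome build mm9, per the submitters' processing notes), a span of 27929 bp with 3 transcript IDs. It was chosen because its value differed widely between the 2 libraries, so its change is given as a description, without a test, and is set against the loci with a transcript ID within 300 kb on either side. Naive cells received 1 h of interferon-beta at 100 U/ml, and pretreated cells received the same 1 h stimulation after an earlier exposure whose length and dose, and the interval after it, are not given in the sources used here. Both libraries came from C57BL/6 MEFs of H3.3-HA knock-in mice, in which a tagged H3.3 cDNA stands in place of H3f3b, a gene for the replacement histone H3.3. The unstimulated naive and pretreated groups (0 h) were not analysed here, so whether a difference was present before the stimulation or arose during it cannot be told apart. Each group had a single library, so the differences below have neither an error between replicates nor a replicate check. The labels name both RNA-seq and scTSS-seq as the assay, and the values were read as RNA-seq.

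Apolipoprotein D is a small secreted glycoprotein of the lipocalin family, proteins that carry lipids and other hydrophobic molecules in a barrel-shaped pocket. It binds arachidonic acid and progesterone among other ligands, and unlike most apolipoproteins it is not made chiefly by the liver. In fibroblasts it is known as a gene of growth arrest and senescence, and in the nervous system as one that responds to injury and oxidative stress. Type I interferon acts through a cell surface receptor, and many of the genes it induces carry a DNA element called the interferon-stimulated response element (ISRE). Another element found at interferon-induced genes is the gamma-activated sequence (GAS).

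The table carries no gene symbols, so the label was checked by distances. Loci were named where their span, or the distance of 1 end from a locus named by span, was base for base that of a gene in the GRCm38 annotation on the same chromosome. XLOC_010091 has the 23737 bp span of Ppp1r2 and XLOC_009716 the 36605 bp span of Bdh1, and the distance between both, 147019 bp, is that between the RefSeq genes. Of the 4 RefSeq genes between them 1 codes for a protein, Apod. Measured from these neighbours, the locus overlaps 1 RefSeq gene, Apod, and holds 99.8% of its 18617 bp. Its end on the Bdh1 side, where Apod starts, is 34 bp short of the gene, and on the other side the locus runs 9346 bp past it. Exon, intron and UTR positions were not assigned, since no mm9 annotation was used.

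The letters before the Apod start are shown with those of its nearest neighbour and of 3 genes that were at least 4-fold higher. The 3 genes were picked because the ISRE core stands in them and not in Apod or the neighbour. Not every such gene holds it. Of 21 named loci at least 4-fold higher, 11 did. The sequences are from RefSeq (GRCm38.p6) and cover the 250 bases before the annotated gene start, 5′ to 3′ on the strand of the gene. Their coordinates are those of GRCm38.p6 and cannot be set beside the mm9 positions of the loci. Ppp1r2 is the nearest neighbour, Oas1g was the locus ranked first by increase, Apol9b was among the 3 loci nearest to Apod in level, and Isg15 is a classical interferon-stimulated gene. Capitals mark the ISRE core, which is GAAA, any 2 bases and GAAA again, searched on both strands, in Oas1g, Apol9b and Isg15. In Apod they mark a run with 1 base less between the repeats, GAAANGAAA, a motif added after the sequence was read.
Apod (chr16:31314809-31315058, minus strand): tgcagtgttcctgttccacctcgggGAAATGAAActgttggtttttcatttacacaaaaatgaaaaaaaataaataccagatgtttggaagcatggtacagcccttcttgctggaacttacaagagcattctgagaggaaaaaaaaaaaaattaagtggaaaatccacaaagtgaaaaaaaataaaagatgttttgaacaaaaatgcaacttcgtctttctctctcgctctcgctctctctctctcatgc
Ppp1r2 (chr16:31275278-31275527, minus strand): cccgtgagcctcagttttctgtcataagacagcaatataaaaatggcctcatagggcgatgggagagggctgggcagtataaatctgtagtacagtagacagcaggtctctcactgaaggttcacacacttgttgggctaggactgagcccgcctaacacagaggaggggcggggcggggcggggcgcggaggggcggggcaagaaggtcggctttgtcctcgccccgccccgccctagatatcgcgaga
Oas1g (chr5:120887614-120887863, minus strand): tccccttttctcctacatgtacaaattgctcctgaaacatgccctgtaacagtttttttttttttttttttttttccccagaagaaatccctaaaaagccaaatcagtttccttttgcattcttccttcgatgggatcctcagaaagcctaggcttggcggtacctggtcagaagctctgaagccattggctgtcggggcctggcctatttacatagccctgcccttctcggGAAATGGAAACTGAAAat
Apol9b (chr15:77728822-77729071, plus strand): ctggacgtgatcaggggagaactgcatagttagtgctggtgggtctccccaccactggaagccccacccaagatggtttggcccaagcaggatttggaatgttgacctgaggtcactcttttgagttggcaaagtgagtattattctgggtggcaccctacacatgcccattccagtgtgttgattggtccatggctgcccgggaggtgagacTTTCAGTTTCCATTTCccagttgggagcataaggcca
Isg15 (chr4:156200819-156201068, minus strand): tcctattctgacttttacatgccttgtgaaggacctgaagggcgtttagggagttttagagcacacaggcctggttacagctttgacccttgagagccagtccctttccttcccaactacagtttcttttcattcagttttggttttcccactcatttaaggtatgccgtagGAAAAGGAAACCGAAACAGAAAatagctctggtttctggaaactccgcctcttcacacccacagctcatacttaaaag
The Apod window held 0 matches to the ISRE core and 0 to the GAS core TTCNNNGAA. Its GAAATGAAA lay at positions -225 to -217 from the start, and Isg15 held the shorter spacing as well, on the other strand at -128 to -120. Isg15 was the 1 locus with this spacing among the 21 named loci at least 4-fold higher (4.76%), against 2.51% of named loci within 2-fold. Overlapping ISRE matches stood at -18 to -9 and -12 to -3 in Oas1g, in 2 copies in Apol9b, and in 3 copies between -78 and -57 in Isg15. Among all 32851 RefSeq windows of this length, 2.98% held an ISRE core, 7.02% a GAS core and 2.68% the shorter spacing. The windows of Xxylt1, Acap2, Ppp1r2 and Bdh1, the protein-coding genes around Apod, held none of the 3 motifs. A match is a description of letters and not a binding site, and the window may miss elements farther away.

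The Apod locus had 5.79 FPKM (read fragments scaled to transcript length and to library size) in naive cells, against 368 FPKM in pretreated cells. The naive value was close to the middle of all loci compared, whose median was 5.94 FPKM, and the pretreated value was far above the middle, 5.07 FPKM. It was 63.6-fold higher in pretreated cells, a log2 ratio of 5.99. On the scale used for all loci, the difference of log2(FPKM + 1), it was 5.76 higher, while the median over 10228 loci with a mean of at least 1 FPKM was -0.16, with quartiles of -0.51 and 0.17. Measured from that median, the difference was 5.92. In order of level, the locus stood at rank 5179 in the naive library, above 49.4% of the loci, and at rank 382 in the pretreated library, above 96.3%.

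The reads of 2 libraries carry a counting error that the authors' deposited table summarises in a test statistic. Its p-values are those of a normal distribution of that statistic, to within 2.86e-06 at 13009 loci. Where the statistic is taken as the log ratio divided by its standard error, as Cuffdiff defines it, the standard error of the Apod log2 ratio was 0.27 and the 95% interval ran from 44.3-fold to 91.2-fold. This interval covers the error within these libraries and not the spread between cultures. As the locus was chosen for its large difference between these same libraries, the interval is a description and not a test. The same holds for the call, q-value and rank that follow. The authors' deposited table calls the locus significant and lists its q-value as 0. Among loci with a mean of at least 1 FPKM and values above 0 in both libraries, 434 were called higher. Of these 434, 51 have a listed q-value of 0, and the Apod statistic ranked 6 among them by size. RNA per cell and the share of cells that express a gene both set a bulk value. More expressing cells and more RNA per cell in the pretreated library therefore cannot be told apart.

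**Figure D1:**
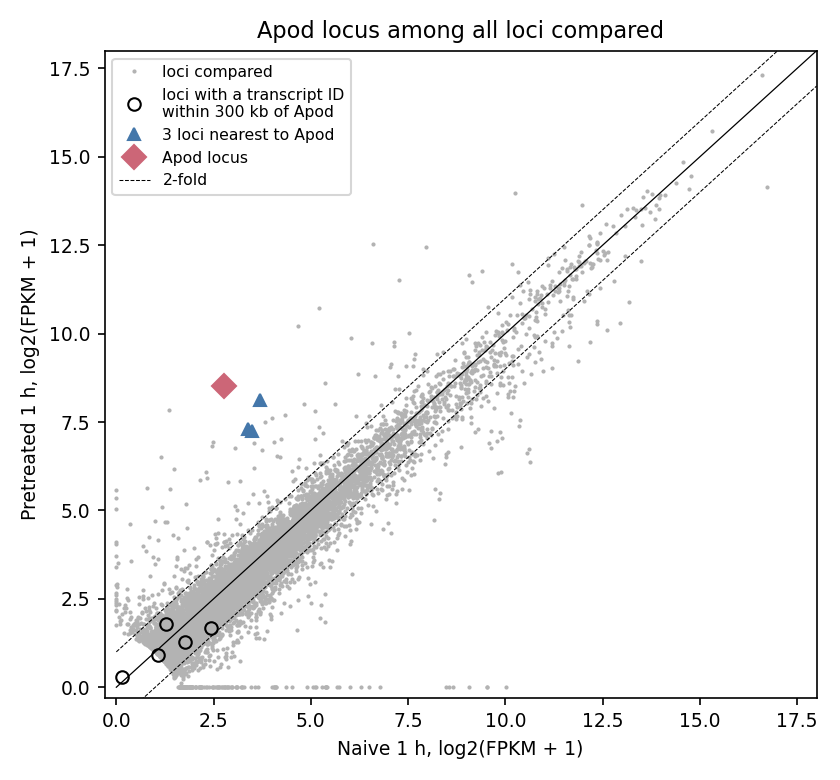
Each point is a locus with its naive value on the horizontal and its pretreated value on the vertical axis, both as log2(FPKM + 1); dashed lines mark 2-fold differences. The Apod locus lies 5.76 above the line of equal values, the 5 loci with a transcript ID within 300 kb have changes between -0.75 and 0.51, and the 3 loci nearest to Apod in level (triangles) lie together below and to its right.

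The genes on either side of Apod had changes between -0.75 and 0.51. Within 300 kb the table held 5 loci with a transcript ID, of which 3 reached the mean of 1 FPKM. Of these 3, 0 passed 2-fold upwards and 0 downwards, against 2.41% and 4.24% of the 9227 loci with a transcript ID compared. Over all 10228 loci, with or without an ID, 289 (2.83%) passed 2-fold upwards and 728 (7.12%) downwards; measured from their median, 423 did so upwards and 527 downwards. The median change of the 3 neighbours compared was -0.49, so Apod stood 6.25 above it on the log2 scale. That median is the value of XLOC_010090, 1 of 2 loci that share a span. With these 2 summed, the median was -0.36. With so few neighbours, a count of 0 is near what the background share would give.

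Ppp1r2, which encodes an inhibitor of protein phosphatase 1, is the nearest neighbour, at 11.6 kb. Its locus had 4.41 FPKM in naive cells against 2.21 FPKM in pretreated cells, a change of -0.75. In the authors' deposited table this was called lower with a q-value of 0.0352, the 1 call among the 5 neighbours. Of these 5, Bdh1 was not tested there. Among all tested loci, 11.9% were called lower and 3.91% higher.

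Next to Ppp1r2, 85.6 kb from Apod, lie 2 loci that share a span, XLOC_009715 and XLOC_010090. RefSeq places 1 protein-coding gene there, Acap2, whose product is a GTPase-activating protein for the small GTPase Arf6. XLOC_009715 had 1.43 FPKM in naive cells against 2.47 FPKM in pretreated cells, and XLOC_010090 had 2.37 and 1.41 FPKM. Their changes, 0.51 and -0.49, have opposite signs, and how reads of the shared span were divided between them is uncertain. Summed, they had 3.8 FPKM in naive cells against 3.88 FPKM in pretreated cells, nearly the same level.

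The remaining neighbours were low. Xxylt1, which encodes a xylosyltransferase that extends sugars on Notch, lay at 205 kb with 1.09 FPKM in naive cells against 0.867 FPKM in pretreated cells. Bdh1, which encodes a mitochondrial enzyme of ketone body metabolism, lay at 108 kb on the other side with 0.0974 and 0.217 FPKM and was not tested by the authors. The single locus without a transcript ID in the window, XLOC_010370, had 0.118 FPKM in naive cells, with 0 listed for pretreated cells. Just outside the window, Gm536 at 303 kb had 0.718 FPKM in naive cells against 1.58 FPKM in pretreated cells, a change of 0.59. Dlg1, which encodes a scaffold protein of cell polarity, lay at 349 kb and had 10.5 and 6.77 FPKM, a change of -0.56.

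The share of the expression in the window shifted accordingly. The Apod locus held 38.1% of the FPKM summed over it and its 5 neighbours in naive cells, against 98.1% in pretreated cells. The neighbours together had 9.4 FPKM in naive cells against 7.17 FPKM in pretreated cells. Nearly all of this difference lay at Ppp1r2, with 4.41 and 2.21 FPKM, so the sum does not describe the neighbours as a group.

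**Figure D2:**
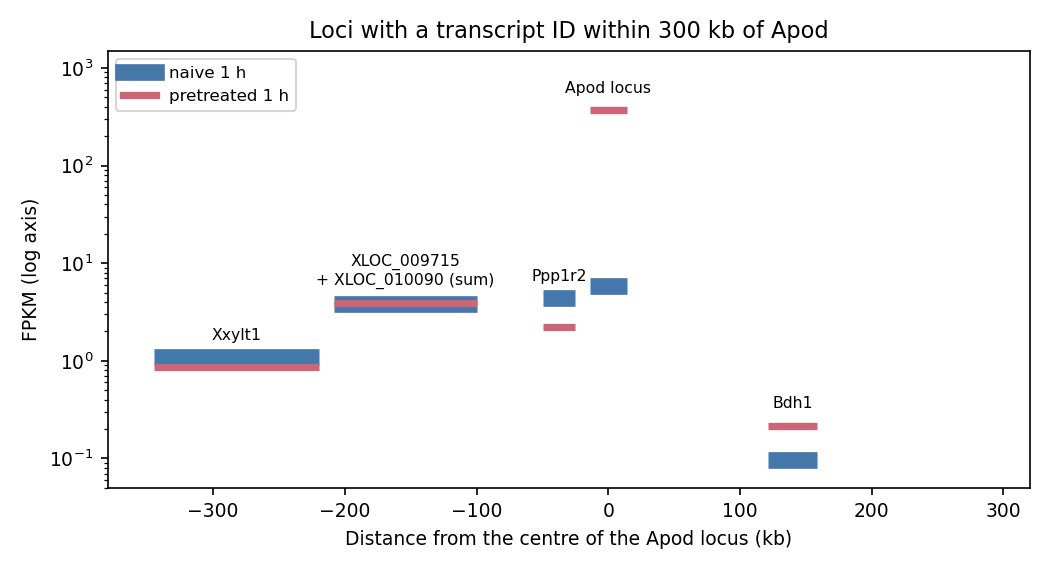
Bars show each locus with a transcript ID over its span, by distance from the centre of the Apod locus in kb, at its FPKM value on a log axis, with wide bars for the naive and narrow bars for the pretreated library; XLOC_009715 and XLOC_010090 share a span and are summed. The Apod bars stand at 5.79 and 368 FPKM, while in every other span both bars stay at or below 4.41 FPKM.

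Along chromosome 16 the Apod locus had the largest change in either direction. Of 316 loci with a transcript ID compared there, 5 (1.58%) were at least 2-fold higher in pretreated cells, Apod among them, against 2.41% of all 9227 such loci in the table. The others were Parp14, an ADP-ribosyltransferase gene, with 9.5 FPKM in naive cells against 20.7 FPKM in pretreated cells; Pla1a, a phospholipase gene, with 0.859 and 2.85 FPKM; and the genes of the antiviral GTPases Mx1, with 17.6 and 91 FPKM, and Mx2, with 23.2 and 58 FPKM. All 4 were called higher in the authors' deposited table, with q-values from 0 (Mx1) to 0.0075 (Mx2), where 3.91% of tested loci were called higher. These calls rest on the same 2 libraries as the changes and are no separate evidence. At the other end, 9 of the 316 (2.85%) were at least 2-fold lower, against 4.24% of all such loci. At 4-fold, 2 loci of the chromosome (0.633%), Apod and Mx1, were higher and 1 (0.316%) was lower, against 0.867% and 0.282% of the 9227 loci with an ID and 0.968% and 1.4% of all 10228 loci. The lower locus, XLOC_009691, had 5.89 FPKM in naive cells, with 0 listed for pretreated cells, and a q-value of 0.309 in the authors' deposited table; it shares its span with another locus.

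The distance from Apod to other higher loci depended on the threshold. At 2-fold, the nearest higher locus, Parp14, lay 4.52 Mb away, and the 33 loci compared between them had changes from -0.84 to 0.92. On the other side, towards the start of the chromosome, 0 of 141 loci were higher, with a highest change of 0.96. Of 222 higher loci, 221 have another on their chromosome. Over these 221 the median distance to the nearest was 0.556 Mb, and 62 had a longer distance than Apod. Loci that share or overlap a span were kept with no distance between them, which can lower this median and the 4-fold median below. At 4-fold, the nearest locus to Apod was Mx1 at 66.4 Mb. Of 80 loci at least 4-fold higher, 76 have another on their chromosome. Over these 76 the median was 0.222 Mb, and 1 locus had a longer distance than Apod. The rest of the 80 have no other on their chromosome and are not in that count.

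**Figure D3:**
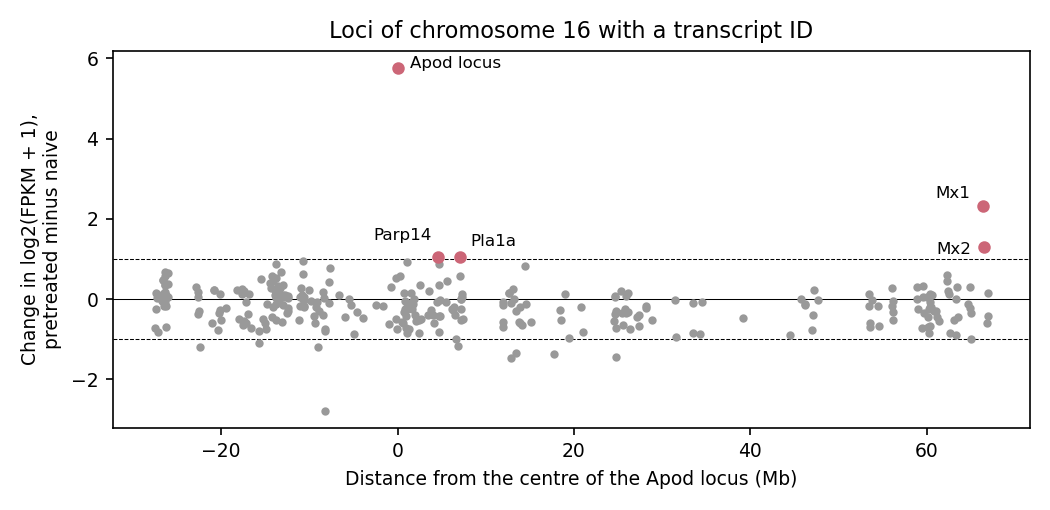
Each point is 1 of the 316 loci of chromosome 16 compared, by distance from the centre of the Apod locus in Mb (horizontal) and by change in log2(FPKM + 1), pretreated minus naive (vertical); dashed lines mark 2-fold. The 5 higher loci are named, with Apod at 5.76 and Mx1 next at 2.31.

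Among all loci compared, Apod had the third largest increase. The first rank belonged to XLOC_020717 on chromosome 5, which shares 1 end with the oligoadenylate synthetase gene Oas1g, with 1.56 FPKM in naive cells against 226 FPKM in pretreated cells. The second was XLOC_010848 on chromosome 17, with 95.7 and 5941 FPKM. Below Apod in the order of loci with a transcript ID came XLOC_022425 on chromosome 6, listed at 0 in naive cells and at 46.7 FPKM in pretreated cells. The authors' deposited table does not call it (q-value 0.235). Its p-value there, 0.0786, equals that of the epithelial marker Krt18, at 0 and 0.094 FPKM, so its level may rest on few reads. XLOC_005882 on chromosome 12, with 24.4 and 1178 FPKM, and XLOC_011538 on chromosome 17, with 36.3 and 1692 FPKM, followed. Their changes ran from 6.47 for the first to 5.51 for the last, and the last 3 of these and XLOC_010848 share their spans with other loci, whereas XLOC_010092 does not. The order depends on the pseudocount: with 0.1 in place of 1, Apod ranked 13, and by the plain ratio over 10090 loci above 0 in both libraries it ranked 10.

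The 3 loci most like Apod were chosen by distance in the plane of the 2 log2(FPKM + 1) values, and with 2 libraries this likeness is coarse. XLOC_026412 on chromosome 8, from 74058161 to 74061336, was nearest, at a distance of 1.02, with 12 FPKM in naive cells against 278 FPKM in pretreated cells. Apol9b, a member of the apolipoprotein L family, was at 1.36, with 9.36 and 157 FPKM. XLOC_005544 on chromosome 12, from 27127486 to 27141317, was at 1.48, with 10.2 and 150 FPKM. All 3 were higher than Apod in naive cells and lower in pretreated cells.

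**Figure D4:**
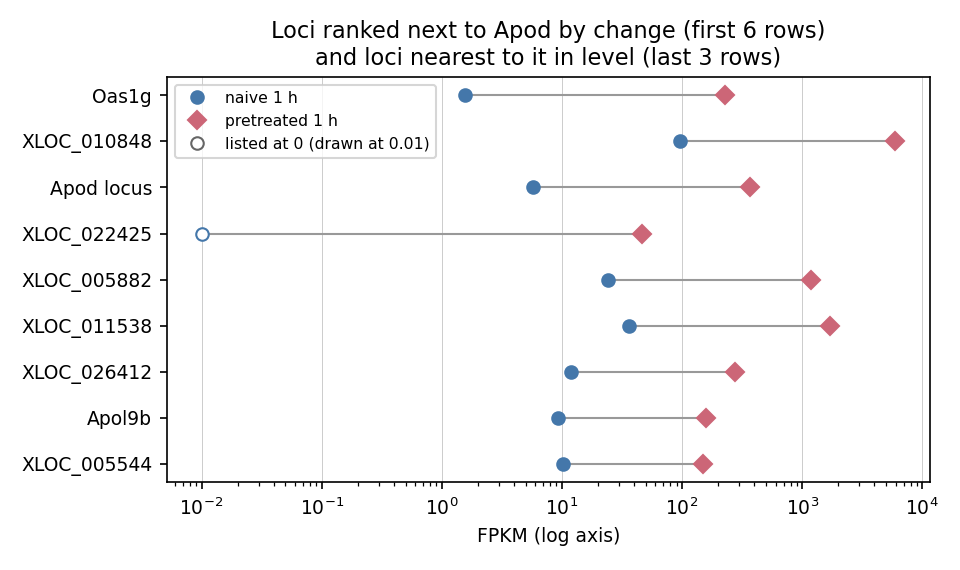
FPKM on a log axis in naive (circles) and pretreated (diamonds) cells for Apod, the 5 loci ranked around it by change and the 3 loci nearest to it in level; an open symbol is a value listed at 0. The Apod line runs from 5.79 to 368 FPKM, a 63.6-fold step, which among the other rows with both values Oas1g exceeds at 145-fold.

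The ISRE core was common before those genes with a large increase that could be named. Of 80 loci with a transcript ID that were at least 4-fold higher, 21 were named and had a RefSeq window. Apod, which was identified from its neighbours, is not among these 21. Of the 21, 11 (52.4%) held the ISRE core, against 107 of 3589 (2.98%) within 2-fold. The near-identical copies Apol9a and Apol9b are both among the 11. At 2-fold or more, 17 of 76 (22.4%) held it. The GAS core was found at 3 of the 21 (14.3%) and at 6.46% of those within 2-fold. Apod, at 63.6-fold, held neither core. It shared this with 7 of the 21 loci (33.3%), among them Irf7, the gene of an interferon regulatory factor, which was named after its window was seen. Since loci were grouped here by the same change that led to the choice of Apod, these shares are descriptions without a test.

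Of the lipocalins, those found by name besides Apod, Lcn2 and Mup6, had at most 2.87 FPKM in either library. Besides Apod and the major urinary protein family, the list held 5 lipocalins, of which 1, Lcn2, was found by name. Lcn2, which encodes a protein that binds bacterial siderophores, had 2.1 FPKM in naive cells against 2.87 FPKM in pretreated cells, a change of 0.32. Mup6, of the urinary protein family, had 0.0837 FPKM in naive cells, with 0 listed for pretreated cells.

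Of 6 other apolipoproteins, 4 were found and 3 reached the mean of 1 FPKM; 2 of these 3 were at least 2-fold higher, against 2.41% of all loci with a transcript ID, and the median change of the 3 was 3.61, against -0.13 for those loci. Both belong to the apolipoprotein L family, whose members are mostly intracellular. Apol9a had 15.1 FPKM in naive cells against 196 FPKM in pretreated cells, a change of 3.61, and Apol9b had 9.36 and 157 FPKM, a change of 3.93. These are near-identical copies, and reads may have been shared between them. They may therefore not be 2 separate increases, and the median of 3.61 is the value of Apol9a. The list was chosen with earlier results of these data known, so the share is a description without a test. Clu, which encodes the secreted chaperone clusterin, had 100 and 154 FPKM, a change of 0.61. Apoe, the gene of the main lipoprotein ligand of the LDL receptor, was listed at 0 in naive cells and had 0.0537 FPKM in pretreated cells.

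Of 2 reported receptors of apolipoprotein D, Bsg (basigin) was found, with 145 FPKM in naive cells against 182 FPKM in pretreated cells, a change of 0.33 with a q-value of 0.629 in the authors' deposited table. It was expressed at a high level in both libraries.

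Genes of growth arrest, with which Apod is often grouped in fibroblasts, had changes from -1.56 to 0.14 where they were compared. Of 8 on the list, 5 were found and 4 compared, of which 0 passed 2-fold upwards and 1 downwards, against 2.41% and 4.24% of all loci with a transcript ID. Their median change was -0.19, against -0.13 for those loci. Gas1, which encodes a membrane protein raised in arrested fibroblasts, had 63.2 FPKM in naive cells against 20.8 FPKM in pretreated cells, a change of -1.56 with a q-value of 0.00132 in the authors' deposited table. Cdkn1a, the gene of the cell-cycle inhibitor p21, had 17.5 and 19.4 FPKM, a change of 0.14. Gas6, a ligand of the TAM receptors, had 7.64 and 7.07 FPKM, and Mgp, the matrix Gla protein, had 3163 and 2590 FPKM. Igfbp3, which encodes a binding protein of insulin-like growth factors, was under the mean of 1 FPKM, with 0.519 and 0.0251 FPKM, and was called lower in the authors' deposited table with a q-value of 0.0285.

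**Figure D5:**
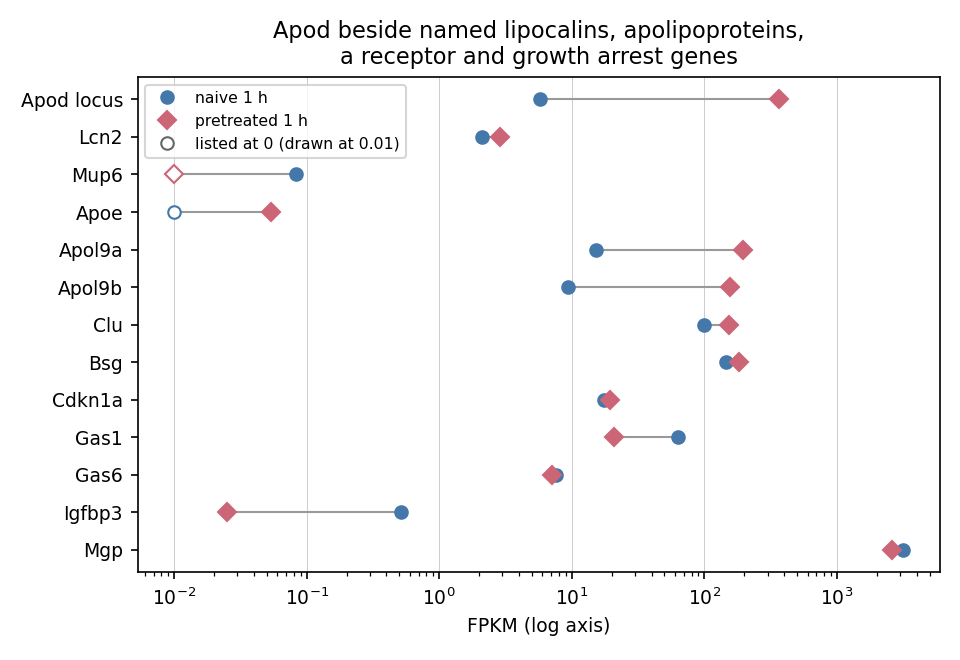
FPKM on a log axis in naive (circles) and pretreated (diamonds) cells for the Apod locus and the named lipocalins, other apolipoproteins, the receptor gene Bsg and growth arrest genes; an open symbol is a value listed at 0. The Apod line spans 5.79 to 368 FPKM, Apol9a and Apol9b also lie higher in pretreated cells, and Gas1 and Igfbp3 lie lower.

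The libraries differed in depth, and most fibroblast markers found were at high levels. Read numbers are not given, but loci listed at 0 in 1 library, whose p-value in the authors' deposited table is that of 1 to 4 reads, allow an estimate. Over 14 spans, a read counted for more in pretreated cells by 1.02 on the log2 scale, a relative depth of 0.492 for that library, and the part of depth in the Apod value was not tested. Of 7 fibroblast markers 5 were found, and 4 of them (Vim, Col1a2, Col3a1 and Pdgfrb) had 45 to 917 FPKM in naive and 47.8 to 704 FPKM in pretreated cells, while Thy1 had 0.144 and 0.293 FPKM. Col1a2, Col3a1 and Vim had changes of -0.83, -0.68 and -0.38, and Pdgfrb of 0.09. The median of these 4 was -0.53, against -0.13 for all loci with a transcript ID compared. The 2 macrophage markers found, Cd68 and Csf1r, summed to 0.836 FPKM in naive cells against 1.11 FPKM in pretreated cells, and the 2 epithelial markers, Cdh1 and Krt18, to 1.3 and 1.42 FPKM. Pecam1, for endothelium, had 0.0629 and 0.0204 FPKM, and Adipoq, for adipocytes, was listed at 0 in naive and had 0.0547 FPKM in pretreated cells. In either library, the sum over the markers found for each of these 4 cell types was at most 1.42 FPKM, though most markers of the lists were not found by name.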

How the data were processed

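RNA of 2 libraries was compared, naive and pretreated MEFs after 1 h of interferon-beta, 1 library per group, so that no test across samples was possible. The authors deposited 1 table with an FPKM value per locus and library and, for the pair, a test statistic (a score), p-values and q-values; its layout is that of Cuffdiff per the file headers. TopHat, Cufflinks 1.2.1 and build mm9 are named by the submitters' processing notes, without roles; the annotation, strand handling and scaling between libraries are not given in the sources used here. Value columns were matched to libraries by the sample names written in every row. Starts are printed 1-based.

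With Python 3.11.15, pandas 2.3.3 and scipy 1.17.1, the change was taken as log2(FPKM + 1), pretreated minus naive, which understates changes of low loci; 24 loci of status FAIL or HIDATA were left out and a mean of at least 1 FPKM was required. The authors' p-values compare reads of 2 libraries, not conditions. FPKM values give no counts, so depth limits the precision of low values to an unknown extent.

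Symbols were given to 8534 of 15883 loci with a transcript ID (53.7%): 4139 by an equal span, each supported by an equal distance to another such locus within 1 Mb, and 4395 by 1 end. With chromosomes rotated, or distances shifted by 10 kb, 0 and 0 loci were named. No position was converted between builds. Naming by 1 end does not exclude further genes in the span. The counting and naming steps were tested on simulated data.

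Named loci were Apod, all loci with a transcript ID within 300 kb, up to 3 ranked next to it on each side by change (2 above, 3 below), the 3 nearest in level, at most 8 loci of chromosome 16 past 4-fold, and list members; Isg15, Irf7, the loci just outside the window and the higher loci of chromosome 16 were added after values were seen. The members and lists were chosen with earlier results of these data known. Alternatives changed the pseudocount, filter, window, centring and threshold.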

Additional observations from a re-analysis of the deposited data

How the results depend on the processing

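The Apod difference was 5.97 with a pseudocount of 0.1 and 5.92 after centring on the median of all loci, against 5.76. The median change of its neighbours, -0.49, was -0.71 with a pseudocount of 0.1, -0.16 without a filter, -0.33 after centring and, added after seeing the data, -0.36 with loci that share a span summed. It stayed at -0.49 with windows of 150 and 600 kb and with all loci of the window; no neighbour reached a mean of 5 FPKM. Apod exceeded that median by 6.68 with a pseudocount of 0.1 and by 5.93 without a filter, against 6.25. Its rank, 3, was 13 with a pseudocount of 0.1 and 10 by the plain ratio (added after seeing the data), and 3 without a filter, at a mean of at least 5 FPKM and among loci with a transcript ID. Loci at least 2-fold higher and lower, 289 and 728, were 465 and 1175 with a pseudocount of 0.1, 176 and 452 at a mean of at least 5 FPKM, and 99 and 143 at 4-fold; with a transcript ID 391 were lower. A smaller pseudocount gives larger log differences at low loci, and stricter limits leave fewer loci; otherwise the cause was not tested. Leaving out a replicate could not be tried. No paired analysis was possible because naive and pretreated cells have a single library each. For the same reason, differences between cultures and an effect of pretreatment cannot be told apart.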
